A study of Mus musculus with 14 samples.

Results

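Aldh1l1 encodes formyltetrahydrofolate dehydrogenase, an enzyme whose gene gives its name to a widely used astrocyte reporter, and the genes described here are Aldh1l1 and the enzymes around it in folate, serine and glycine metabolism: Aldh1l1, Aldh1l2, Mthfd1, Shmt1, Shmt2, Gldc, Amt, Phgdh, Psat1 and Psph. They were chosen by symbol, as the enzymes of folate-borne carbon transfer, serine synthesis and glycine cleavage, with earlier results of these data known. All 10 were found among the 32830 genes of the deposited table. RNA-seq had been run on 14 libraries from the cerebral cortex of 14-day-old mice of the SW strain, all of which carried the transgenic Aldh1l1-GFP reporter, so no library came from mice without it. Upper and deep cortical layers had been separated by hand, and each gave 3 libraries of GFP-positive cells (astrocytes), 2 of GFP-negative cells (non-astrocytes) and 2 of undissociated tissue (bulk tissue). The sorted cells had been released with papain and gated as live by exclusion of the dye DAPI, and the bulk tissue had been through neither step. Groups follow the titles, although another field of the labels has bulk tissue for the upper layer astrocytes and non-astrocytes. Replicates are numbered, but nothing says that they were different mice: p-values therefore measure the spread between libraries, which may be technical.

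Folate carries carbon units at several oxidation states, and serine is their main source. Serine hydroxymethyltransferases (Shmt1 in the cytosol, Shmt2 in mitochondria) split serine into glycine and a folate-bound carbon unit, and the glycine cleavage system, of which Gldc and Amt encode subunits, takes a further unit from glycine inside mitochondria. Mthfd1 interconverts the cytosolic folate forms, while Aldh1l1 in the cytosol and Aldh1l2 in mitochondria remove the unit as carbon dioxide. Serine itself is made from a glycolytic intermediate by Phgdh, Psat1 and Psph acting in that order, and in the brain this route is known to run mainly in astrocytes and radial glia.

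The promoters of the genes that carried the results are shown here because several of these genes were high in the same libraries. Sequences are from RefSeq (GRCm38.p6), 250 bases ending just before an annotated start site, 5′ to 3′ on the gene's strand, and capitals mark CCAAT or its reverse complement ATTGG. RefSeq promoters were matched for 9 of the 10 genes by symbol; Aldh1l2 is named only. The Shmt2 window is also given, for a gene whose levels overlapped between fractions. Shmt2 was the only matched gene without CCAAT in a window, so it is no neutral comparison. The window of Shmt1, which was lower in astrocytes than in non-astrocytes, held CCAAT and is not shown. Positions are chr6:90550543-90550792 (+) for Aldh1l1, chr19:30175442-30175691 (-) for Gldc, chr3:98339970-98340219 (-) for Phgdh, chr19:15925060-15925309 (-) for the more upstream of the start sites of Psat1, chr5:129787254-129787503 (-) for Psph and chr10:127522445-127522694 (-) for Shmt2.
Aldh1l1: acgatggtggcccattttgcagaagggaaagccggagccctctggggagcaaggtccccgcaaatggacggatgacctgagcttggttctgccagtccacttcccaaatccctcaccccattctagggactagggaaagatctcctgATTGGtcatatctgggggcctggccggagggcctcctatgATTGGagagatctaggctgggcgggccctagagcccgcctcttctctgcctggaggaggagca
Gldc: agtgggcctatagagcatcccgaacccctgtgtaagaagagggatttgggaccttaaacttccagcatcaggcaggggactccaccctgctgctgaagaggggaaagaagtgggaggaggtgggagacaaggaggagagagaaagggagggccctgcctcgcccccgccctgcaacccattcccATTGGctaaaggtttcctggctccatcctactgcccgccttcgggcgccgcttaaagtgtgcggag
Phgdh: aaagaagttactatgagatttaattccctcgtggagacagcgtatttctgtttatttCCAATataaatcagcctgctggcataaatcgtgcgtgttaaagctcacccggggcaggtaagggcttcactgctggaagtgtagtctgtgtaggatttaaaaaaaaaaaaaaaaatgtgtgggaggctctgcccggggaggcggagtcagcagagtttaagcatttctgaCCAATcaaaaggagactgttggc
Psat1: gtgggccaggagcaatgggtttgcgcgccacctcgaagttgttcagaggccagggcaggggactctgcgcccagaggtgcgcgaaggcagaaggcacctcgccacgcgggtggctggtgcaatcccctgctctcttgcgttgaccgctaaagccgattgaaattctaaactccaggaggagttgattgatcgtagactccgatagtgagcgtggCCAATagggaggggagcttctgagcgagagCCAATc
Psph: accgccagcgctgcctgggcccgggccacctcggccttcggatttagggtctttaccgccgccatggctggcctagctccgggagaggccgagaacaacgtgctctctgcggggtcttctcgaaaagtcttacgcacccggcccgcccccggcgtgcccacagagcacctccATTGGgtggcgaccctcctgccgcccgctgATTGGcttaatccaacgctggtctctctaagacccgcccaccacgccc
Shmt2: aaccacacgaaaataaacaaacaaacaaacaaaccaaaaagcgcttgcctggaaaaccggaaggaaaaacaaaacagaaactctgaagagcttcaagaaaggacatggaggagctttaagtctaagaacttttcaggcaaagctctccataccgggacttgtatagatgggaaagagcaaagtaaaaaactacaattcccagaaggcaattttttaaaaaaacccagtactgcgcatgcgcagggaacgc

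CCAAT was searched on both strands after the sequences had been seen, so its counts are a description and no test. Of the 10 windows of the 9 matched genes, 8 held it, where 33.8% of 32851 RefSeq promoters of the same length did. By gene, 8 of the 9 held it in a window. The Shmt2 window and the window of the downstream Psat1 start site held none. In Aldh1l1 the matches began 103 and 63 bases before the start, in Psph 78 and 48, in Phgdh 193 and 23, and in Psat1 36 and 6. Gldc had a single match 66 bases before its start, Mthfd1 at 69, Shmt1 at 47 and Amt at 210. Of the other motifs searched on both strands, none was in any window of these genes: TGATGNAA, the amino acid response element, was in 3.45% of all promoters, CACGTG, the E-box, in 6.02%, and TTGGCA, a nuclear factor I half-site, in 12.3%. These are matches of letters in a short window and no measure of binding.

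Levels are given as normalised read counts, the deposited reads per gene divided by a size factor for each library, and the libraries held 18226457 to 30316765 reads in genes. As a check of the sort, the summed level of 12 astrocyte markers was 1106539 to 1624812 in the astrocyte libraries, 30622 to 38237 in the non-astrocytes and 216165 to 255519 in bulk tissue. The non-astrocytes were rich in microglial markers (152930 to 226871, against 7624 to 9070 in bulk tissue) and mural cell markers (212978 to 285623, against 7994 to 10259), while 10 neuronal markers summed to 5090 to 9861 there and 132670 to 176334 in bulk tissue. No marker was at 0 in every library of a group. Replicate 2 of the deep layer astrocytes stood apart: 16.0% of its reads were mitochondrial, where the lowest library of its group had 5.7% and the other groups 3.04% to 7.13%, and layer differences in astrocytes that moved by over 1.5 times or changed sign without it are also given without it.

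Of the 10 genes, 7 were higher in astrocytes than in non-astrocytes, 2 were lower and 1, Shmt2, did not pass the test. Aldh1l1 and Gldc stood furthest apart, at 31.5 and 22.5 times their non-astrocyte level, followed by the serine synthesis genes Phgdh, Psat1 and Psph at 6.50, 5.57 and 3.67 times. Aldh1l2 and Shmt1 were the ones that were lower, at 0.635 and 0.646 times. Among all 22575 genes tested, 29.6% were called higher and 36.8% lower in this comparison (limma, adjusted p below 0.05), and the median log2 difference was 1.80 over the 10 genes and -0.08 over all genes. Aldh1l1 drives the reporter, so its own difference checks the sort and is no finding, yet it is counted in the 7 and in the median. The 10 genes were also chosen with earlier results of these data known, so these counts beside all genes are a description and no test.

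**Figure D1:**
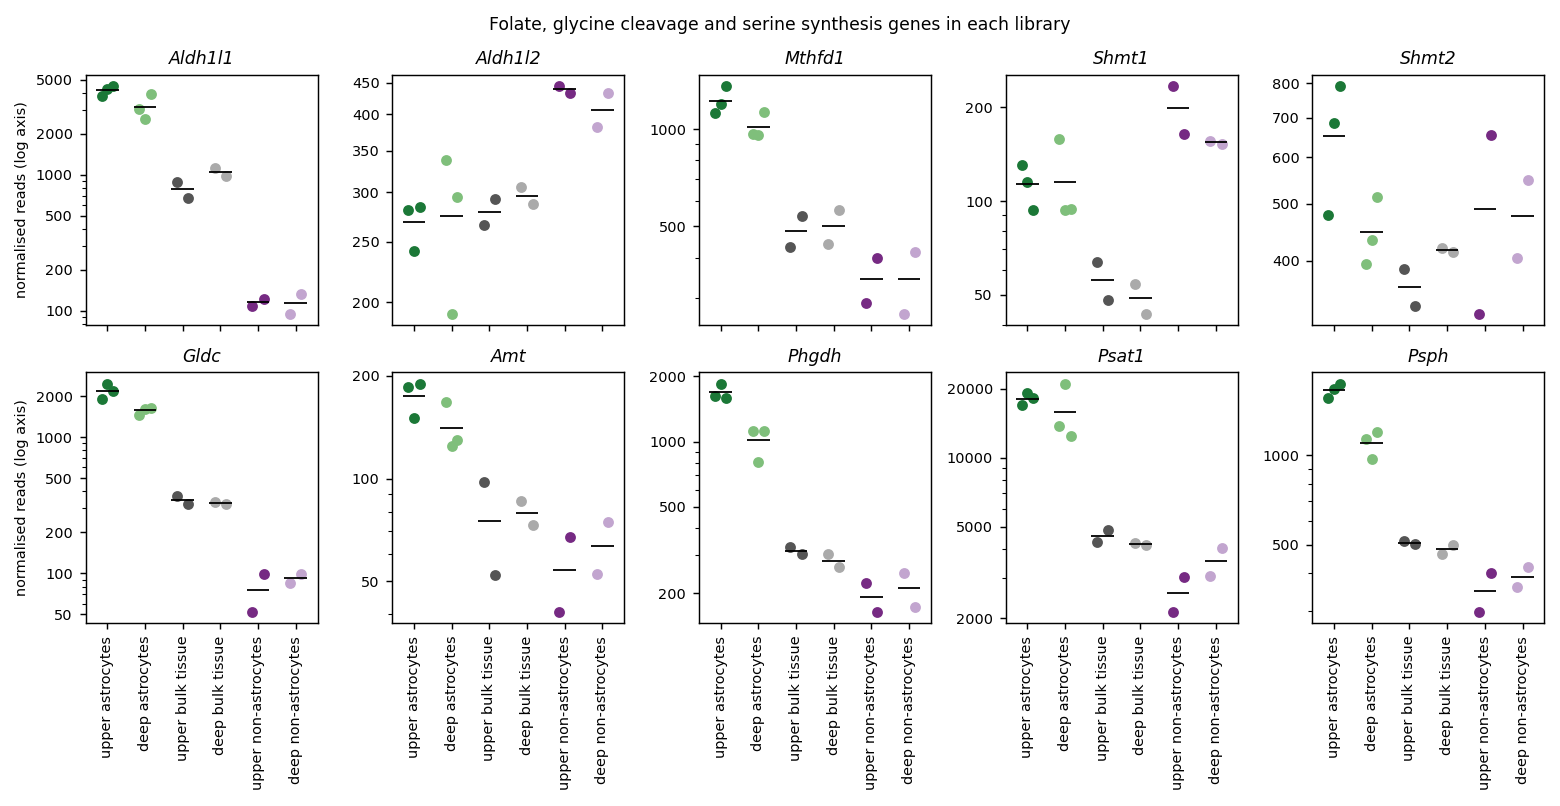
Normalised read count (log axis) of each gene in every library, by layer and fraction; each point is 1 library. Aldh1l1, Gldc, Phgdh, Psat1 and Psph are highest in all 6 astrocyte libraries, Aldh1l2 and the Shmt1 mean are highest in the non-astrocytes, and the fractions of Shmt2 overlap.

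Among the folate enzymes, Aldh1l1 (chr6:90486427-90600203, + strand, GRCm38) had normalised read counts of 3056, 2559 and 3939 in deep layer astrocytes and 3791, 4303 and 4516 in upper layer astrocytes. It had 94.7 and 133 in deep and 109.0 and 123 in upper layer non-astrocytes. Bulk tissue had 1116 and 987 in the deep and 885 and 681 in the upper layers. All 6 astrocyte libraries lay above all bulk libraries, and these above all non-astrocyte libraries. Against bulk tissue, the log2 difference of Aldh1l1 was 2.00 ± 0.15 (SE) in astrocytes (adjusted p = 9.34e-09, limma) and -2.97 ± 0.16 in non-astrocytes (adjusted p = 5.31e-10). The exons of Aldh1l1 overlap those of the antisense gene Gm15756 over 11% of their length, and that gene's own value was at most 9.4 in any library. Whether reads were counted by strand is not given in the sources used here.

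Aldh1l2, the mitochondrial counterpart, had a different order of groups. It had 382 and 433 in deep and 444.5 and 433.5 in upper layer non-astrocytes, and 339, 191.5 and 295 in deep and 281, 242 and 284 in upper layer astrocytes. Bulk tissue had 305.5 and 287 in the deep and 266 and 292.5 in the upper layers. The 4 non-astrocyte libraries were above all 10 others, and the other groups overlapped with their neighbours in the order. The gene was lower in astrocytes than in non-astrocytes by a log2 difference of -0.66 ± 0.16 (adjusted p = 0.00197, limma) and higher in non-astrocytes than in bulk tissue by 0.55 ± 0.17 (adjusted p = 0.0122). For astrocytes against bulk tissue the log2 difference was -0.10, with a 95% confidence interval from -0.44 to 0.24 (adjusted p = 0.592), and it was 0.08 when values were scaled by library total alone (CPM). Its exons overlap those of D10Wsu102e on the other strand over 14.1% of their length, a gene whose value was 455.6 to 992, so the Aldh1l2 values are uncertain.

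Per kilobase of exon, the level of Aldh1l1 was 15.0 to 29.5 times that of Aldh1l2 within the 6 astrocyte libraries. The ratio was 3.87 to 6.07 in bulk tissue and 0.407 to 0.510 in the non-astrocytes. The ranges of the 3 fractions did not overlap, and Aldh1l2 was the more abundant of the pair, per kilobase, in all 4 non-astrocyte libraries. Aldh1l1 drives the reporter on which the cells were sorted, so the spread of this ratio between fractions follows from the sort and is no finding. A ratio within a library does not depend on its size factor, but it does on the exon lengths taken.

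**Figure D2:**
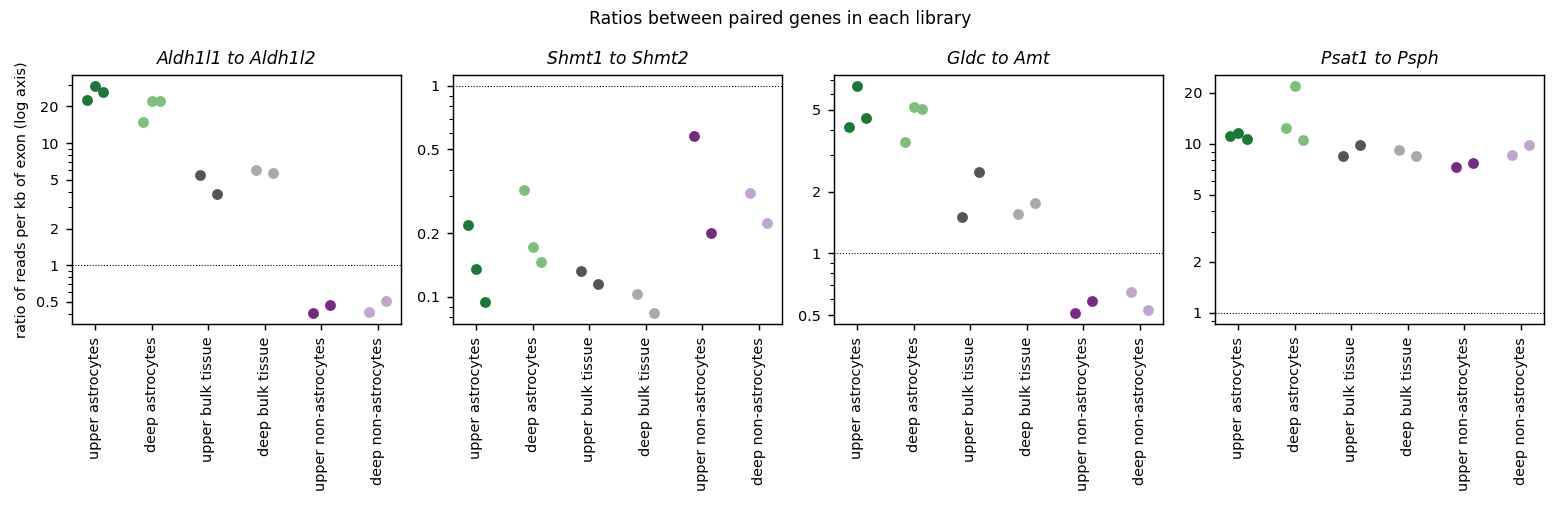
Ratio of the levels of paired genes, per kilobase of exon, in each library (log axis; the dotted line is a ratio of 1). The ratios of Aldh1l1 to Aldh1l2 and of Gldc to Amt lie in separate ranges in astrocytes, bulk tissue and non-astrocytes, those of Shmt1 to Shmt2 overlap, and replicate 2 of the deep layer astrocytes has the highest ratio of Psat1 to Psph, at 22.0. Aldh1l1 drives the reporter used for the sort, so its ratio checks the sort and is no finding.

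Mthfd1, the trifunctional cytosolic enzyme, had 967, 957 and 1126 in deep and 1118, 1192 and 1359.9 in upper layer astrocytes. It had 268 and 417 in deep and 289 and 398.5 in upper layer non-astrocytes, and 442 and 563 in deep and 431 and 539 in upper layer bulk tissue. Astrocyte libraries were all above the others, and all bulk libraries were above all non-astrocyte libraries. The gene was 3.29 times higher in astrocytes than in non-astrocytes (log2 1.72 ± 0.15, adjusted p = 9.89e-08, limma) and 2.27 times higher than in bulk tissue (log2 1.18 ± 0.15, adjusted p = 7e-06). In non-astrocytes it was lower than in bulk tissue by a log2 difference of -0.54 ± 0.17 (adjusted p = 0.0119), a call that was lost without replicate 1 of either non-astrocyte group (-0.38 and -0.42) or replicate 2 of either bulk group (-0.45 and -0.46).

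Shmt1, the cytosolic serine hydroxymethyltransferase, was the least abundant of the 10 genes per kilobase in astrocytes, at 29.4 ± 6.77 (SD, n = 6) normalised reads per kilobase. It had 158, 93.6 and 94.1 in deep and 131, 115.5 and 93.7 in upper layer astrocytes, 156 and 153 in deep and 234 and 164 in upper layer non-astrocytes, and 54.0 and 43.4 in deep and 63.6 and 48.1 in upper layer bulk tissue. Every sorted library, astrocyte or not, was above every bulk library, while the sorted fractions overlapped through replicate 1 of the deep layer astrocytes. The exons of Shmt1 overlap those of Smcr8 on the other strand over 4.7% of their length. Smcr8 had values of 1200.7 to 2574.2, so the Shmt1 values are uncertain. Shmt1 was 3.32 times higher in non-astrocytes than in bulk tissue (log2 1.73 ± 0.23, adjusted p = 1.05e-05, limma) and 2.14 times higher in astrocytes than in bulk tissue (log2 1.10 ± 0.21, adjusted p = 0.000301). Astrocytes were below non-astrocytes by a log2 difference of -0.63 ± 0.21 (adjusted p = 0.0159), and without replicate 1 of the upper layer non-astrocytes this was -0.50 (adjusted p = 0.0705).

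The mitochondrial Shmt2 had 394, 434 and 513 in deep and 477, 686 and 792 in upper layer astrocytes, 404 and 548 in deep and 325 and 655 in upper layer non-astrocytes, and 421 and 414 in deep and 387 and 335 in upper layer bulk tissue. All 3 fractions overlapped. Its log2 difference between astrocytes and non-astrocytes was 0.19, with a 95% confidence interval from -0.23 to 0.61 (adjusted p = 0.401, limma). Leaving out a replicate of the upper layer non-astrocytes moved it to -0.06 (without replicate 1) or 0.44 (without replicate 2, adjusted p = 0.0468). Against bulk tissue the astrocyte difference was 0.46 (95% confidence interval 0.04 to 0.88, adjusted p = 0.0534). It passed under 11 of 26 alternatives, among them edgeR (0.52, adjusted p = 0.0247), DESeq2 (0.48, adjusted p = 0.0382) and the fit with a replicate block within each fraction (0.46, adjusted p = 0.00577). The ratio of Shmt1 to Shmt2, per kilobase, was below 1 in every library, at 0.0947 to 0.321 in astrocytes, 0.201 to 0.577 in non-astrocytes (to 0.310 without replicate 1 of the upper layer) and 0.0840 to 0.132 in bulk tissue.

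Of the glycine cleavage genes, Gldc, which encodes the glycine decarboxylase subunit, had 1458, 1608.5 and 1646 in deep and 1911.5, 2463 and 2169 in upper layer astrocytes. It had 85.0 and 99.1 in deep and 52.2 and 98.7 in upper layer non-astrocytes, and 335 and 321 in deep and 369.6 and 322.5 in upper layer bulk tissue. The fractions were far apart: the lowest astrocyte library, at 1458, was above the highest bulk library, at 369.6, and the lowest bulk library was above all non-astrocytes. The log2 difference of astrocytes was 4.49 ± 0.16 against non-astrocytes (adjusted p = 3.08e-12, limma) and 2.45 ± 0.16 against bulk tissue (adjusted p = 2.75e-09), the largest of the 10 genes against bulk tissue. In non-astrocytes Gldc was 4.10 times lower than in bulk tissue (log2 -2.04 ± 0.18, adjusted p = 1.02e-07).

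Amt, the aminomethyltransferase subunit that passes the carbon unit to folate, differed less between fractions. It had 168, 125 and 130.1 in deep and 185, 150.4 and 189.5 in upper layer astrocytes, 52.6 and 74.6 in deep and 40.7 and 67.3 in upper layer non-astrocytes, and 85.8 and 73.0 in deep and 97.7 and 52.1 in upper layer bulk tissue. All astrocyte libraries were above the others, while bulk tissue and non-astrocytes overlapped. It was 2.69 times higher in astrocytes than in non-astrocytes (log2 1.43 ± 0.23, adjusted p = 4.99e-05, limma) and 2.06 times higher than in bulk tissue (log2 1.04 ± 0.23, adjusted p = 0.000902). The non-astrocyte difference from bulk tissue was -0.39, with a 95% confidence interval from -0.92 to 0.15 (adjusted p = 0.195). Per kilobase, Gldc was at 3.48 to 6.55 times the level of Amt in astrocytes, 1.51 to 2.48 times in bulk tissue and 0.513 to 0.646 times in non-astrocytes, so the order of the pair was the opposite in the non-astrocytes.

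In the serine synthesis pathway, Phgdh, which encodes the enzyme of its committed step, had 1116.5, 807 and 1118 in deep and 1629, 1849.6 and 1584 in upper layer astrocytes. It had 248 and 174 in deep and 222 and 164 in upper layer non-astrocytes, and 302 and 263 in deep and 327 and 302.5 in upper layer bulk tissue. No astrocyte library came near the other fractions, and the bulk libraries were all above the non-astrocytes. The log2 difference of astrocytes was 2.70 ± 0.15 against non-astrocytes (adjusted p = 3.88e-10, limma) and 2.12 ± 0.15 against bulk tissue (adjusted p = 6.4e-09). In non-astrocytes Phgdh was lower than in bulk tissue by -0.58 ± 0.17 (adjusted p = 0.00657).

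Psat1, the aminotransferase of the middle step, was the most abundant of the 10 genes per kilobase in all 3 fractions. In astrocytes it was at 3982 ± 763 (SD, n = 6) normalised reads per kilobase, where Aldh1l1, the next, was at 818 ± 166. It had 13793, 21022 and 12487.5 in deep and 17004, 19101 and 18235 in upper layer astrocytes. Non-astrocytes had 3064 and 4058 in the deep and 2134 and 3017.5 in the upper layers, and bulk tissue had 4235 and 4161 in the deep and 4278 and 4835 in the upper layers. Astrocytes were above bulk tissue, and bulk tissue above non-astrocytes, in every library. The log2 difference of astrocytes was 2.48 ± 0.15 against non-astrocytes (adjusted p = 1.38e-09, limma) and 1.93 ± 0.15 against bulk tissue (adjusted p = 2.64e-08). The difference of non-astrocytes from bulk tissue was -0.55 ± 0.17 (adjusted p = 0.011), and -0.45 (adjusted p = 0.0550) without replicate 1 of the deep or -0.42 (adjusted p = 0.0555) without replicate 1 of the upper layer non-astrocytes.

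Psph, the phosphatase of the last step, had 1134, 972 and 1194 in deep and 1563, 1676 and 1741 in upper layer astrocytes. It had 361 and 419 in deep and 297 and 401 in upper layer non-astrocytes, and 466 and 499 in deep and 515 and 501 in upper layer bulk tissue. The 3 fractions were again separate and in the same order as for Phgdh and Psat1. It was 3.67 times higher in astrocytes than in non-astrocytes (log2 1.88 ± 0.12, adjusted p = 2.12e-09, limma) and 2.72 times higher than in bulk tissue (log2 1.44 ± 0.12, adjusted p = 4.74e-08). In non-astrocytes it was lower than in bulk tissue by -0.43 ± 0.13 (adjusted p = 0.0106). The exons of Psph overlap those of Cct6a on the other strand over 10.4% of their length, a gene with values of 849.8 to 1654, so part of the Psph values may belong to it if strand was not used. Per kilobase, Psat1 was at 10.6 to 22.0 times the level of Psph in astrocytes (10.6 to 12.4 times without replicate 2 of the deep layer), 8.45 to 9.82 times in bulk tissue and 7.31 to 9.85 times in non-astrocytes.

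**Figure D3:**
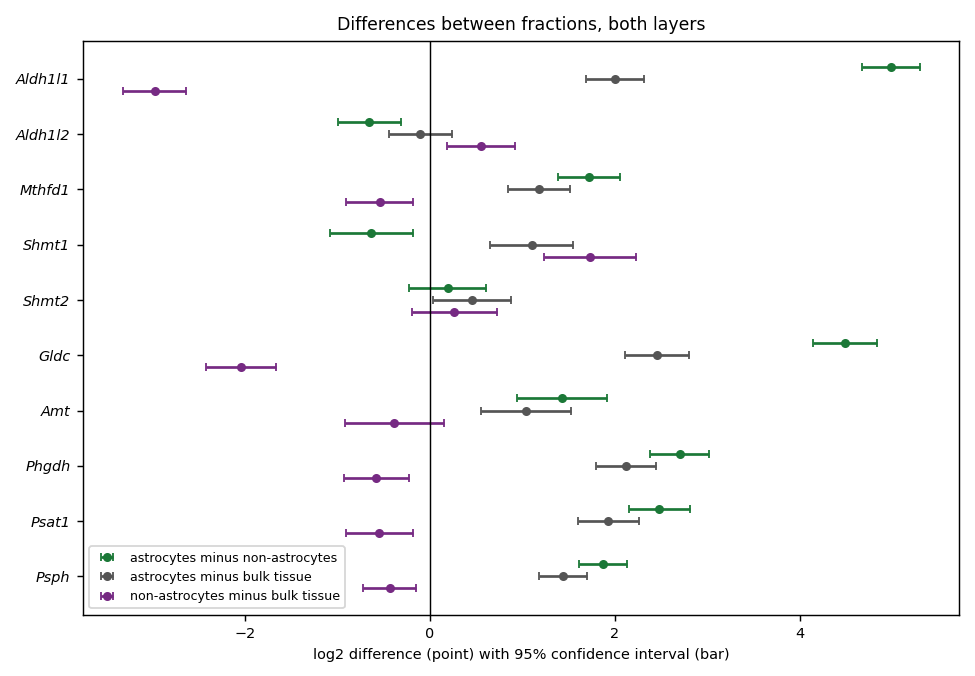
Log2 difference of each gene between fractions with both layers weighed equally (points, limma) and its 95% confidence interval (bars). Aldh1l1 and Gldc lie furthest to the right for astrocytes against non-astrocytes, at 4.98 and 4.49, and Shmt1 is above 0 for both sorted fractions against bulk tissue.

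Together, 8 of the 10 genes were higher in astrocytes than in bulk tissue and none was lower, where 28.8% of all genes were called higher and 36.1% lower. The median log2 difference was 1.31 for the 10 genes and -0.10 for all genes. Aldh1l1, which drives the reporter, is counted in the 8 and in the median of the 10. In a bulk sample, fewer cells of a type and less RNA per cell cannot be told apart. Bulk tissue also had not been dissociated: 9 immediate early and heat shock genes summed to 2295 to 2986 in the astrocytes, 24019 to 31621 in the non-astrocytes and 19091 to 31964 in bulk tissue. Gene by gene, 1 of the 9 was higher and 4 were lower in astrocytes than in bulk tissue (median log2 difference -0.25), 7 were higher and 1 lower in non-astrocytes than in bulk tissue (median 2.87), and all 9 were lower in astrocytes than in non-astrocytes (median -4.40). Their part in these differences was not tested. For non-astrocytes against bulk tissue, 2 of the 10 genes (Aldh1l2 and Shmt1) were higher and 6 lower, where 30.5% of all genes were called higher and 31.1% lower. This last comparison depended on scaling. With CPM the median of all genes moved from -0.04 to 0.33 and the calls from 6885 higher and 7030 lower to 9081 and 5004, and of the 6 lower genes only Aldh1l1 and Gldc then passed, while Mthfd1 (-0.17), Phgdh (-0.21), Psat1 (-0.17) and Psph (-0.06) did not. Under that scaling Shmt2 passed as higher (0.64, adjusted p = 0.00858).

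The 10 genes together took 0.0997% to 0.126% of all reads in the astrocyte libraries, 0.0226% to 0.0282% in non-astrocytes and 0.0273% to 0.0286% in bulk tissue. Psat1 alone made up 51.5% to 73.1% of that sum, with the highest share in replicate 2 of the deep layer astrocytes. This library had the highest Psat1 value of all 14 but the lowest astrocyte values of Aldh1l1, Aldh1l2, Mthfd1, Shmt1, Amt, Phgdh and Psph.

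Between upper and deep layer astrocytes, none of the 10 genes passed the test (limma), where 0.0399% of all genes were called higher in the upper layers and 0.0399% lower. The log2 difference was above 0 for all 10, with a median of 0.37 against 0.01 over all genes, and 4 of them had an unadjusted p below 0.05, as did 10.3% of all genes. Without replicate 2 of the deep layer astrocytes 8 of the 10 were above 0. Markers of other cells also differed between these groups: the 8 oligodendrocyte markers had a median of -1.16, with 1 called lower (Mbp, myelin basic protein), and summed to 3688 to 5011 in the upper and 4938 to 6155 in the deep layers. Medians were 0.60 for 8 endothelial, 0.74 for 5 blood and 0.98 for 5 fibroblast markers, none of them called. Upper against deep layer sums were 842 to 1161 against 626 to 970 for endothelial and 74 to 323 against 72 to 162 for blood markers. Fibroblast sums, at 754 to 1006 against 879 to 1184, did not follow their median. The immediate early and heat shock genes summed to 2954 to 2986 in the upper and 2295 to 2332 in the deep layers. Their part in the layer differences was not tested. The values nearest the threshold belonged to serine synthesis: Phgdh at 0.75 ± 0.19 and Psph at 0.60 ± 0.15, each with an adjusted p of 0.206. The edgeR test called none of the 10, and DESeq2 called these genes (Phgdh 0.73, adjusted p = 0.0354; Psph 0.59, adjusted p = 0.0334). With a replicate block within each fraction their adjusted p were 0.0588 and 0.0549, and over all 26 alternatives they ran from 0.0354 to 0.568 for Phgdh and from 0.0334 to 0.538 for Psph. The block raised the number of genes called in this comparison from 18 to 188.

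**Figure D4:**
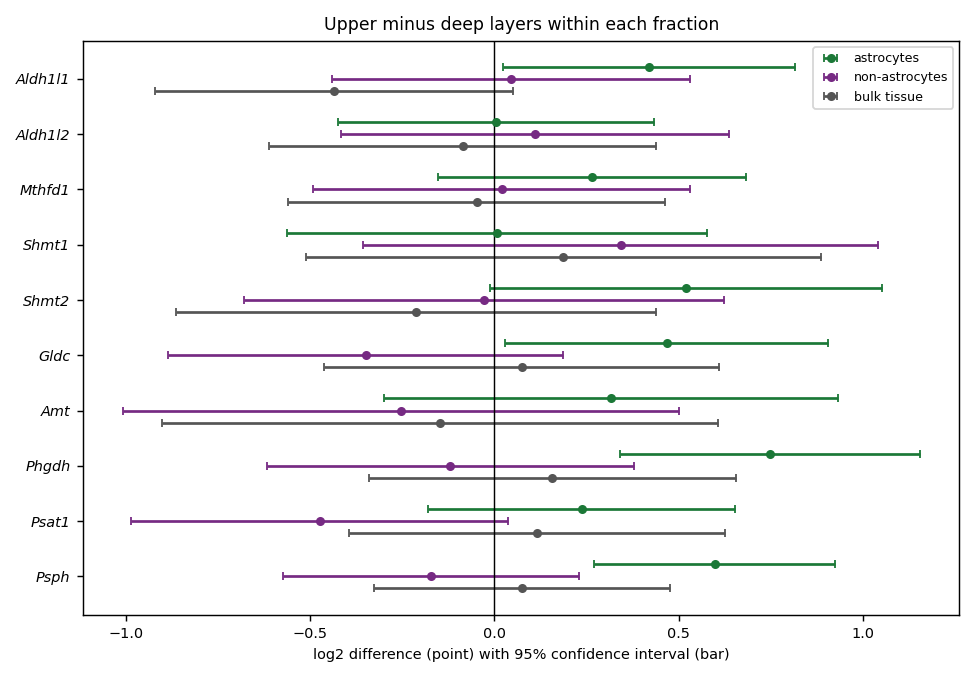
Log2 difference of each gene between upper and deep layers within each fraction (points, limma) and its 95% confidence interval (bars). Within astrocytes the intervals of Aldh1l1, Gldc, Phgdh and Psph lie above 0 before adjustment, while none of the adjusted p-values passed.

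In these values, the 3 upper layer libraries were all above the 3 deep layer libraries for Phgdh (lowest upper 1584, highest deep 1118), Psph (1563 against 1194) and Gldc (1911.5 against 1646). No gene of the 10 had all deep above all upper libraries, and over all genes 8.70% were separate with the upper layers higher and 7.31% with the deep layers higher. Without replicate 2 of the deep layer astrocytes, the difference was 0.59 for Phgdh, 0.51 for Psph, 0.46 for Psat1, 0.27 for Aldh1l1, -0.12 for Shmt1 and -0.24 for Aldh1l2, and none passed. For the other genes, the difference was 0.52 ± 0.25 for Shmt2, 0.47 ± 0.20 for Gldc, 0.42 ± 0.19 for Aldh1l1, 0.32 ± 0.29 for Amt, 0.27 ± 0.20 for Mthfd1 and 0.24 ± 0.20 for Psat1. Their 95% confidence intervals reached up to 1.05 for Shmt2 and 0.93 for Amt. Aldh1l2 (0.00) and Shmt1 (0.01) had the smallest differences, which were below 0 under CPM and 3 other methods.

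The layers of the other fractions gave no call among the 10 genes either. In non-astrocytes, where 0.00443% of all genes were called higher in the upper layers and 0% lower, the differences ran from -0.47 for Psat1 to 0.34 for Shmt1, and none had an unadjusted p below 0.05, where 3.86% of all genes did. In bulk tissue, where 0.159% of all genes were called higher and 0.297% lower, they ran from -0.43 for Aldh1l1 to 0.19 for Shmt1, again with none below 0.05 unadjusted, where 7.26% of all genes were. Aldh1l1 in bulk tissue had 1116 and 987 in the deep and 885 and 681 in the upper layers. That difference was not called (adjusted p = 0.791, limma). Its mean in astrocytes was 4203 ± 373 (SD, n = 3) in the upper and 3184 ± 699 in the deep layers, also without a call.

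Whether the layer difference in astrocytes differed from that in the other fractions was tested as an interaction. Against non-astrocytes none of the 10 genes passed (lowest adjusted p 0.677, for Psph at 0.77 ± 0.24), where 0% of all genes were called higher and 0.00443% lower, and 4 had an unadjusted p below 0.05, as did 5.98% of all genes. Against bulk tissue none passed either (lowest adjusted p 0.412, for Aldh1l1 at 0.85 ± 0.29), where 0.0797% of all genes were called higher and 0.0576% lower, and 2 had an unadjusted p below 0.05, as did 8.03% of all genes. No call came from the alternatives of these interactions in any of the 10 genes.

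The pathway around these genes was described by lists of other genes chosen from its known chemistry. Genes named beyond the rule for naming, to complete a small count, were chosen after their values were seen. Here these are Slc25a32, Dmgdh, Mthfs, Atic, Mthfd2l, Mtr, Mat2a, Mat2b, Gnmt, Dld, Gss, Sptlc1, Sptlc2, Slc1a5, Srr, Slc3a2, Vldlr, Nupr1, Chac1, Trib3, Atf4, Atf5, Ddit3 and Sesn2, as well as genes named by the rule in another comparison. In folate uptake and activation, 2 of 7 genes tested were higher in astrocytes than in non-astrocytes and 3 lower, where 29.6% of all genes were called higher and 36.8% lower, with a median log2 difference of -0.43 (-0.08 over all genes); Folr1 was too low to test. Slc19a1, the reduced folate carrier, was 5.78 times lower (309 ± 87.6 against 1755 ± 354, SD, n = 6 and 4; log2 -2.53, adjusted p = 2.49e-09, limma), and Fpgs, which adds the glutamate tail that keeps folate in cells, was lower by -0.86 (adjusted p = 0.00728); Slc25a32, the mitochondrial folate carrier, was the third, at -0.44. Ggh, which removes that tail, was 2.83 times higher (log2 1.50, adjusted p = 3.65e-06), and Slc46a1, the proton-coupled folate transporter, was at 0.65 (adjusted p = 0.0105), a call lost with CPM and without replicate 1 of either non-astrocyte group. Against bulk tissue, where 28.8% of all genes were called higher and 36.1% lower, 3 of the 7 were higher in astrocytes, Slc46a1 (0.83), Ggh (2.20) and the folate receptor gene Folr2 (3.30, 60.2 ± 13.7 against 6.34 ± 4.81). In non-astrocytes, where 30.5% of all genes were called higher and 31.1% lower than in bulk tissue, 5 of the 7 were higher, among them Slc19a1 (2.37), Folr2 (2.45), Fpgs (1.11) and Ggh (0.70).

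Folate interconversion and use held genes in both directions, with 3 of 12 higher and 4 lower in astrocytes than in non-astrocytes, near the shares of all genes (29.6% and 36.8%), and a median of 0.09. Sardh, which takes a carbon unit from sarcosine, was 5.69 times higher (699 ± 227 against 122.5 ± 45.6; log2 2.51, adjusted p = 3.23e-07, limma). Mthfd1l, the mitochondrial formate-producing relative of Mthfd1, was 3.12 times lower (log2 -1.64, adjusted p = 1.08e-05). Mthfd1l was also lower than in bulk tissue in both sorted fractions, by -3.44 in astrocytes and -1.80 in non-astrocytes, which is the opposite direction to Mthfd1 in astrocytes. Mtfmt, the mitochondrial formyltransferase for initiator tRNA, was at 0.53 (adjusted p = 0.00183), a call lost with CPM. Further calls were the purine synthesis gene Atic (0.35) and, lower, the dimethylglycine dehydrogenase gene Dmgdh (-2.15) and Mthfs (-0.43). Against bulk tissue, 5 of 12 were higher in astrocytes and 3 lower, beside 28.8% and 36.1% of all genes. Those higher were Sardh (1.84), Mthfd2 (0.78), Mthfd2l (0.77), Mtfmt (0.36) and Atic (0.36), and Mthfd1l and Dmgdh (-3.31) were among those lower. In non-astrocytes Mthfd2 was among the genes that were higher, and Mthfd1l and Sardh (-0.67) were lower. Of these, Mthfd2 in non-astrocytes (0.66, adjusted p = 0.0413) lost its call under 9 of 26 alternatives.

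In the methionine cycle and transsulfuration, which carry the unit on from folate and use serine to make cysteine, 6 of 12 genes were higher in astrocytes than in non-astrocytes and 1 lower, where 29.6% of all genes were called higher and 36.8% lower, with a median of 0.81. Cbs, which joins serine to homocysteine, was 47.2 times higher (6228 ± 659.7 against 132 ± 22.7; log2 5.56, adjusted p = 4.77e-14, limma), a larger fold than that of any of the 10 genes, and Cth, which acts after it, was 29.0 times higher (1209 ± 169.7 against 42.0 ± 14.4; log2 4.86, adjusted p = 2.04e-11). Ahcyl1 and Ahcyl2, relatives of adenosylhomocysteinase, were higher by 2.88 and 1.42. The gene that was lower was Mtr, the methionine synthase that takes its carbon unit from folate, at -2.14. Against bulk tissue, 5 of 12 were higher in astrocytes and 2 lower, beside 28.8% and 36.1% of all genes. Those higher were Cbs (3.06), Cth (3.63), Mat2a (1.54), Gnmt (1.50) and Ahcyl1 (1.37), and those lower were Mat2b (-1.38) and Ahcyl2 (-0.52). In non-astrocytes, 30.5% of all genes were called higher than in bulk tissue and 31.1% lower. Of this list Mtr was higher (2.35), and Cbs (-2.50), Ahcyl2 (-1.94), Ahcyl1 (-1.51), Cth (-1.23) and Mat2b (-1.09) were lower.

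Among the other genes of glycine cleavage, use and transport, 6 of 10 were higher in astrocytes than in non-astrocytes and 1 lower, beside 29.6% and 36.8% of all genes, with a median of 0.95; Tdh was too low to test. Gcsh, the carrier subunit that works with Gldc and Amt, was 6.21 times higher (4334 ± 845 against 697 ± 136; log2 2.63, adjusted p = 3.8e-10, limma). Dld, the remaining subunit, was higher by 1.02 (adjusted p = 1.79e-06), so the 4 subunit genes of the system all passed as higher in astrocytes. Slc6a9, the glycine transporter of astrocytes, was higher by 2.47 and Gcat, which makes glycine in the breakdown of threonine, by 3.10, while Gatm, which uses glycine for creatine synthesis, was 4.60 times lower (log2 -2.20, adjusted p = 4.31e-09). Against bulk tissue, 7 of 10 were higher in astrocytes and none lower (among them Gcsh 1.19, Slc6a9 1.90 and Gatm 0.71), beside 28.8% and 36.1% of all genes. In non-astrocytes 1 was higher than in bulk tissue and 4 lower, beside 30.5% and 31.1% of all genes. Gatm (2.91) was higher, and Gcat (-1.65), Gcsh (-1.45), Gss (-0.68) and Dld (-0.43) were lower.

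Of the genes of serine use and transport, 9 of 14 were higher in astrocytes than in non-astrocytes and 3 lower, beside 29.6% and 36.8% of all genes, with a median of 1.14. Slc7a10, an exchanger of small neutral amino acids that include D-serine, was 33.8 times higher (3949 ± 823 against 114 ± 8.24; log2 5.08, adjusted p = 5.25e-13, limma). Slc1a4, a serine and alanine transporter, was 8.42 times higher (log2 3.07) and Sfxn1, the mitochondrial serine carrier, 5.26 times higher (log2 2.39, adjusted p = 1.88e-10). Serinc3, a membrane protein gene, was 5.92 times lower (log2 -2.57), and Sptlc2, of sphingolipid synthesis, and Sfxn3 were the others that were lower, at -1.13 and -0.75. Against bulk tissue, 9 of 14 were higher in astrocytes and 2 lower, beside 28.8% and 36.1% of all genes. Slc7a10 was higher, at 3.39, and those lower were Sfxn3 at -2.57 and Srr, which makes D-serine, at -0.41. Against non-astrocytes, Srr was among the genes called higher in astrocytes, at 1.25 (adjusted p = 1.77e-06, limma). In non-astrocytes 4 were higher than in bulk tissue and 6 lower, beside 30.5% and 31.1% of all genes. Those higher were Serinc3 (2.90), Slc1a5 (2.16), Sptlc2 (1.32) and Sptlc1 (0.37), and Sfxn3 (-1.82) and Srr (-1.67) were among those lower.

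The list of ATF4 response genes was included because this transcription factor is known to induce Phgdh, Psat1, Psph and Shmt2 when amino acids are short. Of its 14 genes, 5 were higher in astrocytes than in non-astrocytes and 8 lower, beside 29.6% and 36.8% of all genes, with a median of -0.66. Asns, the asparagine synthetase, was at 11.1 ± 7.94 in astrocytes, 222 ± 51.3 in non-astrocytes and 1239 ± 171 in bulk tissue (log2 -4.43 against non-astrocytes, adjusted p = 3.2e-09, and -6.92 against bulk tissue, adjusted p = 1.89e-11, limma). Cebpb, a partner transcription factor, was lower by -4.96, at 16.7 ± 13.8 in astrocytes, 467 ± 50.4 in non-astrocytes and 16.1 ± 5.67 in bulk tissue. The others that were lower were Trib3 (-2.39), Slc7a5 (-2.22), Atf5 (-0.89), Ddit3 (-0.80), Atf4 itself (-0.70) and Sesn2 (-0.62). Slc7a11, the cystine-glutamate exchanger, was higher by 2.44 and Ddit4, a stress-induced inhibitor of mTOR signalling, by 2.02. Slc3a2 (0.84), Vldlr (0.70) and Nupr1 (0.58) were the others that were higher. Against bulk tissue, 5 of 14 were higher in astrocytes and 4 lower, beside 28.8% and 36.1% of all genes. Those higher were Slc7a11 (2.37), Slc3a2 (1.96), Ddit4 (1.51), Slc7a5 (0.71) and Nupr1 (0.71). Those lower were Asns, Chac1 (-2.10), Trib3 (-1.91) and Atf5 (-0.56). In non-astrocytes 6 were higher than in bulk tissue and 4 lower, beside 30.5% and 31.1% of all genes. Cebpb (4.83), the amino acid transporter gene Slc7a5 (2.93) and Atf4 (0.68) were among those higher. Those lower were Asns (-2.49), Chac1 (-2.32), Vldlr (-0.55) and Ddit4 (-0.51).

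Between upper and deep layer astrocytes, no gene of these 6 lists passed (limma). The medians lay between 0.07 and 0.25 apart from the ATF4 response genes, whose median was 0.59. The exons of Fpgs, Folr2, Sardh, Ahcyl2, Slc6a9, Gcat, Slc7a10, Serinc3 and Cebpb overlap those of other annotated genes. So do those of Dmgdh, Mthfs, Mat2a, Gss, Srr, Atf5 and Ddit3, and the values of all these genes are uncertain to that extent. The overlap was 975 of 1546 exon bases for Folr2, 1132 of 2384 for Gcat and at most 1986 of 5141 for Slc6a9.

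**Figure D5:**
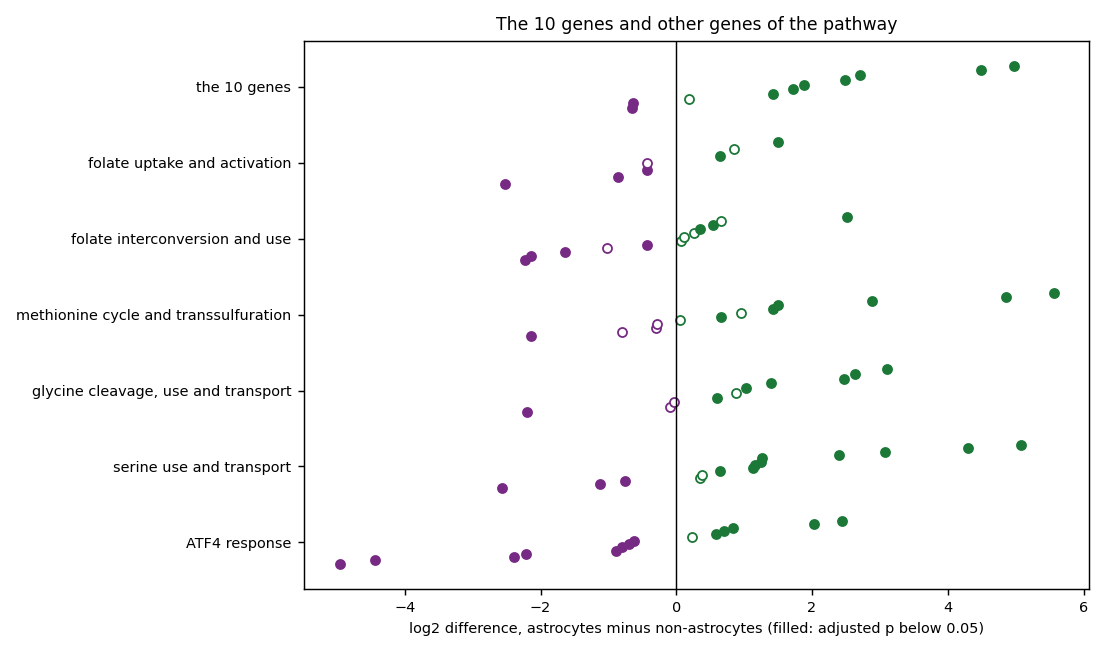
Log2 difference between astrocytes and non-astrocytes for the 10 genes and for the other genes of the pathway, by list; each point is 1 gene, and filled points passed the test. Lists of folate uptake and interconversion lie on both sides of 0, and the median of serine use and transport is 1.14.

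Among the 10 genes, the profiles over the 6 group means most like each other were those of Mthfd1 and Amt, with a root mean square difference of 0.146 on the log2 scale after each gene was centred on its own mean. Mthfd1 and Psph (0.159) and Phgdh and Psat1 (0.205) came next, while Aldh1l1 and Gldc differed by 0.426. The farthest pair was Aldh1l1 and Shmt1, at 2.47. Over all genes tested with a regular symbol, the profiles nearest to Aldh1l1 were those of Clu, which encodes the secreted chaperone clusterin (0.068), the potassium channel gene Kcnk1 (0.151) and the ciliary neurotrophic factor receptor gene Cntfr (0.162). Nearest to Gldc were Hepacam, an astrocyte adhesion protein gene (0.092), and Mmd2 (0.114). Nearest to Phgdh were Paqr7 (0.120), Sardh (0.130) and the metal transporter gene Slc39a14 (0.151), of which Sardh belongs to the folate list. Nearest to Aldh1l2 were Parp8 (0.040), Fbxw17 (0.059) and Inpp5b (0.060), which, like it, had their highest mean in the non-astrocytes. These likenesses are over 6 group means and carry no test.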

How the data were processed

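RNA from 14 libraries of mouse cortex had been amplified with the NuGEN RNA-Seq V2 kit and sequenced as single-end reads, per the labels' protocols. The deposited values are a signal, reads per gene scaled by a size factor: after division by the step between low values, 100% of values in each library were whole within 1e-06, and the authors' tools, per the submitters' processing notes, were CASAVA, TopHat2 2.0.11, HTSeq 0.6.1p1 and DESeq2 with GRCm38. Size factors ran from 0.705 to 1.302, and reads in genes from 18226457 to 30316765. Whether strand was used is not given in the sources used here.

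By identifier, 32007 of 32830 genes were matched to GENCODE M21 (GRCm38), which gave positions and the merged exon lengths used for levels per kilobase. Groups follow the sample titles. Genes with a value of at least 10 in at least 2 libraries were kept (22575, all 10 described genes among them). The value plus 1 was put on the log2 scale, which understates changes of low genes, and 1 model of the 6 group means (8 residual degrees of freedom) was fitted with limma 3.58.1 (R 4.3.3), moderating the variance robustly around its trend with intensity. Comparisons of fractions weigh the layers equally. P-values were adjusted over all 22575 genes by the Benjamini-Hochberg method and called at 0.05. Errors are SE for differences and SD for levels. The procedure was tested on simulated data. Because the values are counts already scaled, edgeR 4.0.16 and DESeq2 1.42.0 on the recovered reads were alternatives.

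The 10 genes and all lists were chosen with earlier results of these data known. Named are the 10 genes, the 4 genes of each pathway list with the smallest p for astrocytes against non-astrocytes, up to 2 called genes per list in other comparisons, and the 3 genes nearest in profile to Aldh1l1, Aldh1l2, Gldc and Phgdh; others are marked in the text. A few genes under this rule are not reported here by name, though list counts include them. Same-numbered libraries of upper and deep layer astrocytes deviated together (correlations of 0.203, 0.149 and 0.171), a pairing that comes from the data and not from the labels. Fits with a block by these numbers were alternatives, and the fit reported held no block. For non-astrocytes the correlation was 0.436 and for bulk tissue 0.094. Each is a single value, because the deviations of 2 libraries from their mean mirror each other, and its sign depends on the numbering. Other alternatives changed the pseudocount (0.5, 5), the filter (none, 50), the scaling (CPM, the reads scaled by library total alone, TMM), the moderation, the samples fitted and the replicates, each left out in turn.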

Additional observations from a re-analysis of the deposited data

How the results depend on the processing

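Across 26 alternatives, the 25 calls of the 10 genes between fractions gave 650 values, of which 639 stayed past the threshold in the same direction, 11 missed it and 0 changed sign. For non-astrocytes against bulk tissue, CPM left 2 genes lower in place of 6, with a shift of the median of all genes from -0.04 to 0.33; for astrocytes against non-astrocytes the genes called lower were 1 to 2 with replicates left out, 1 being without replicate 1 of the upper layer non-astrocytes (Shmt1 lost). For upper against deep layer astrocytes, DESeq2 called 2 genes higher in place of 0, and the cause was not tested. The fit with a replicate block within each fraction changed 1 call, Shmt2 in astrocytes against bulk tissue (adjusted p = 0.00577), and no other call of the 10 genes; with 1 block shared by all fractions none changed.

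None of the values that changed sign was called in the fit reported. Under CPM, TMM, edgeR and DESeq2 in that order, the upper minus deep difference in astrocytes was -0.017, -0.025, -0.066 and -0.037 for Aldh1l2 and -0.013, -0.022, -0.051 and -0.025 for Shmt1. For Shmt2 in non-astrocytes it was 0.072 with CPM, 0.047 with edgeR and 0.042 with DESeq2, and for Aldh1l2 in astrocytes against bulk tissue 0.084 with CPM. With replicates left out in turn, the ranges that crossed 0 were as follows. Between fractions they were -0.061 to 0.444 for Shmt2 (astrocytes against non-astrocytes) and -0.187 to 0.018 for Aldh1l2 (astrocytes against bulk tissue). For layers of astrocytes they were -0.236 to 0.174 for Aldh1l2 and -0.119 to 0.256 for Shmt1. For layers of non-astrocytes they were -0.196 to 0.288 for Aldh1l1, -0.299 to 0.339 for Mthfd1, -0.534 to 0.477 for Shmt2, -0.802 to 0.104 for Gldc, -0.61 to 0.102 for Amt, -0.374 to 0.136 for Phgdh and -0.388 to 0.044 for Psph. For layers of bulk tissue they were -0.222 to 0.126 for Mthfd1, -0.011 to 0.385 for Shmt1, -0.023 to 0.173 for Gldc and -0.594 to 0.301 for Amt. For the difference of layer differences they were -0.346 to 0.064 for Aldh1l2 and -0.073 to 0.565 for Mthfd1 against non-astrocytes, and -0.15 to 0.26 for Aldh1l2, -0.378 to 0.069 for Shmt1 and -0.028 to 0.348 for Psat1 against bulk tissue.

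The number of all genes called between layers moved by more than 1.5 times, between fractions it did not. For astrocytes it was 18, and 142 with DESeq2, 89 with 1 replicate block, 188 with a block within fractions, 1 with only the groups compared, 4 without trend, and 35, 35 and 56 without deep layer replicates 1, 2 and 3. For non-astrocytes it was 1, and 7 with edgeR, 139 with DESeq2, 13 without filter, 11 without trend, 2 with a pseudocount of 5, 3 and 33 with the blocks, 0 with only the groups compared, and 0 to 12 with replicates left out. For bulk tissue it was 103, and 167 with edgeR, 428 with DESeq2, 231 with a pseudocount of 5, 168 and 261 with the blocks, 1242 (656 higher, 586 lower, against 36 and 67) with only the groups compared, and 11 to 214 with replicates left out. For the layer difference of astrocytes against that of non-astrocytes it was 1, and 59 with DESeq2, 0 with CPM, 2 without trend, 3 and 4 with the blocks, and 0 to 2 with replicates left out. Against that of bulk tissue it was 31, and 49 with edgeR, 200 with DESeq2, 74 with a pseudocount of 5, 52 and 112 with the blocks, and 0 to 72 with replicates left out.

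Groups of 2 or 3 libraries limit the layer comparisons: the 95% confidence intervals of the 10 genes in astrocytes span 0.66 (Psph) or more on the log2 scale. The lowest number of reads behind any value of the 10 genes was 46, for Shmt1 in bulk tissue. Sequencing lanes of single libraries are not named in the labels, and lane and group cannot be told apart.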
